A study of Mus musculus with 10 samples.

Results

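The genes described here encode the proteins of the mitochondrial ribosome. They were taken by name: every gene whose symbol is Mrpl or Mrps followed by a number and at most 1 letter from a to c, which gave 77 of the 24411 genes in the tables. RNA sequencing covered 10 libraries of mouse morulae of the ICR strain, with 10 embryos pooled in each. The Mettl3-ASO group (5 libraries) carried an antisense oligonucleotide (ASO) against Mettl3, which encodes the methyltransferase that writes the main internal methyl mark of mRNA. The ASO-Control group (5 libraries) carried an oligonucleotide with no target. All embryos of both groups came from superovulated oocytes fertilized in vitro, were injected as zygotes 3 to 6 h after insemination and were cultured in KSOM medium to 72 h, so both groups share injection and culture. Replicates 3 to 5 of both groups are labelled batch 2, and replicates 1 and 2 of both groups carry no batch label and are called untagged here.

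The mitochondrial ribosome translates the few mRNAs of the mitochondrial genome, which encode core subunits of the respiratory chain and of ATP synthase. Its ribosomal RNAs are transcribed from mitochondrial DNA, whereas its proteins are encoded in the nucleus, made on cytosolic ribosomes and imported. Some of these proteins descend from bacterial ribosomal proteins, and others have no bacterial counterpart and were added in the mitochondrial lineage. A cleavage-stage embryo inherits its mitochondria from the oocyte.

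Of the 77 genes, 50 encode proteins of the large subunit and 26 proteins of the small subunit. The protein of Mrps36, in spite of its name, is a subunit of the 2-oxoglutarate dehydrogenase complex of the citric acid cycle. The proteins of Mrps18a and Mrps30 are named for the small subunit but sit in the large one, and they are counted there. The genes lie on 17 chromosomes, with 10 on chromosome 11, the most on any one.

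The knockdown was visible in the libraries: Mettl3 had expected counts of 0, 0, 0, 2 and 1 in the 5 Mettl3-ASO libraries, against 244 to 446 in the 5 ASO-Control libraries. Expected counts per library ranged from 9905830 to 13530284 for the 4 untagged and from 21412857 to 32327283 for the 6 batch 2 libraries. All 10 morula markers examined were present in both groups, and they differed between them: 4 were called lower, 3 higher, and their median log2 fold change was -0.24. Their summed FPKM (fragments per kilobase of transcript, scaled to library size) lay between 23868 and 44677 in Mettl3-ASO libraries, against 17177 and 26375 in ASO-Control ones, and was nearly all Dppa3. The keratin genes Krt8 and Krt18 had 13.3 to 137 and 9.71 to 111 FPKM in Mettl3-ASO libraries, against 60.3 to 315 and 87.7 to 477 FPKM in ASO-Control ones. Markers of cumulus and granulosa cells summed to at most 0.6 FPKM in Mettl3-ASO and 0.06 FPKM in ASO-Control libraries. Genes of the two-cell stage moved with the group: their 10 markers summed to between 1076 and 3580 FPKM in Mettl3-ASO libraries, against 3.18 and 18.3 FPKM in ASO-Control ones, and all 10 were called higher. The part of these marker genes in the differences below was not tested.

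All 77 genes were expressed in every library, with no FPKM below 7.99 and no expected count below 197, and all passed the filter for testing (a mean of at least 1 FPKM over the 10 libraries). With edgeR's quasi-likelihood test and Benjamini-Hochberg adjustment over all 9522 tested genes, 25 of the 77 were lower and 14 higher in Mettl3-ASO morulae at an adjusted p under 0.05, and 38 were not called. With the replicate number as a block, 30 were lower and 14 higher. The called share of 50.6% stood beside 49.4% of all tested genes. The lower share was 32.5% beside 24.0% of all tested genes, and the higher share 18.2% beside 25.4%. When the libraries were scaled by their totals alone, without a composition factor, 18 of the 77 were lower and 16 higher. With that scaling the median log2 fold change was -0.06 for the 77 genes, beside 0.06 over all tested genes. In the reported fit these medians were -0.11 and 0.01.

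By this description the changes were also smaller than those of the tested genes as a whole. The median absolute log2 fold change was 0.32 for the 77 genes and 0.51 for all tested genes. These sets were not matched by level. Within the 77 genes the median was 0.21 at or above the median ASO-Control level and 0.40 below it. Over the 78 cytosolic ribosomal protein genes it was 0.39, and none of them was called and changed by at least 2-fold. Only 6 of the 77 (7.79%) were both called and changed by at least 2-fold, beside 22.1% of all tested genes. These were Mrps10, Mrps18b, Mrps36 and Mrpl47, which fell (8.67% of all tested genes fell by that much), and Mrpl50 and Mrpl16, which rose (13.4%). The fold changes of the 77 genes ran from -1.42 for Mrps10 to 1.08 for Mrpl50 on the log2 scale. RNA was measured from whole embryos and relative to each library's total, so fewer cells and less RNA per cell cannot be told apart.

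**Figure D1:**
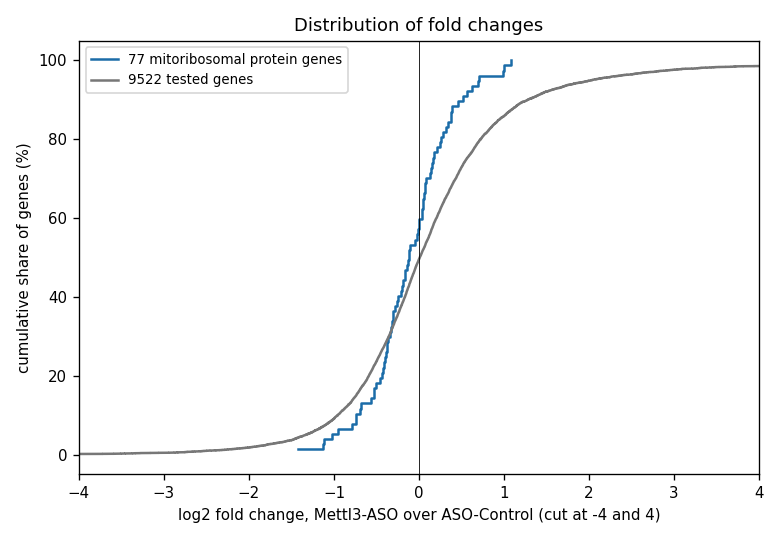
Cumulative share of genes (vertical axis, %) against the log2 fold change of Mettl3-ASO over ASO-Control (horizontal axis), for the 77 mitoribosomal protein genes and all 9522 tested genes. The curve of the 77 genes is steeper, with a median absolute log2 fold change of 0.32 beside 0.51, and it ends at -1.42 and 1.08.

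**Figure D2:**
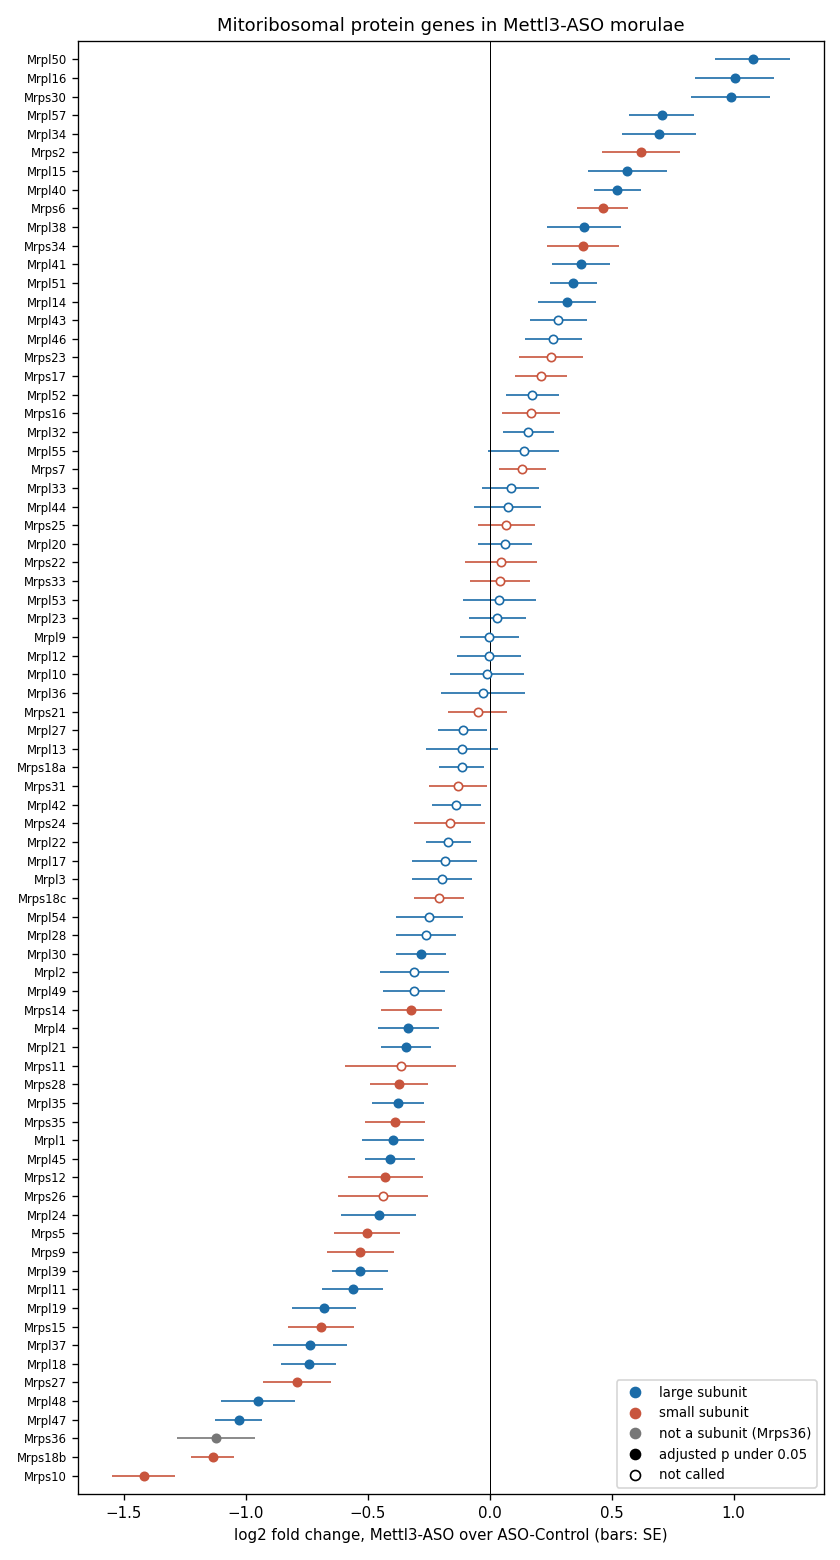
Log2 fold change of Mettl3-ASO over ASO-Control with its standard error for each of the 77 genes, from the highest at the top to the lowest at the bottom; filled points had an adjusted p under 0.05 and colours give the subunit. Of the 14 genes that rose 11 are of the large subunit, as are 50 of all 77. The lower end is led by Mrps10, Mrps18b, Mrps36 and Mrpl47.

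The levels of the 77 genes spanned 92.8-fold between the highest and the lowest mean of the ASO-Control group. The median gene had 155 FPKM in Mettl3-ASO and 154 FPKM in ASO-Control morulae. In ASO-Control morulae 19 genes had at least 300 FPKM and 13 had less than 50 FPKM. The order of the genes was largely kept: across the 77 genes the log2 mean levels of the groups had a Pearson correlation of 0.939, a description across genes that are not independent replicates. Still, 14 genes moved by 10 or more places. Mrps10 was 55th in Mettl3-ASO and 29th in ASO-Control morulae, and Mrpl47 was 35th and 12th. Mrpl50 was 49th in Mettl3-ASO and 69th in ASO-Control morulae.

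**Figure D3:**
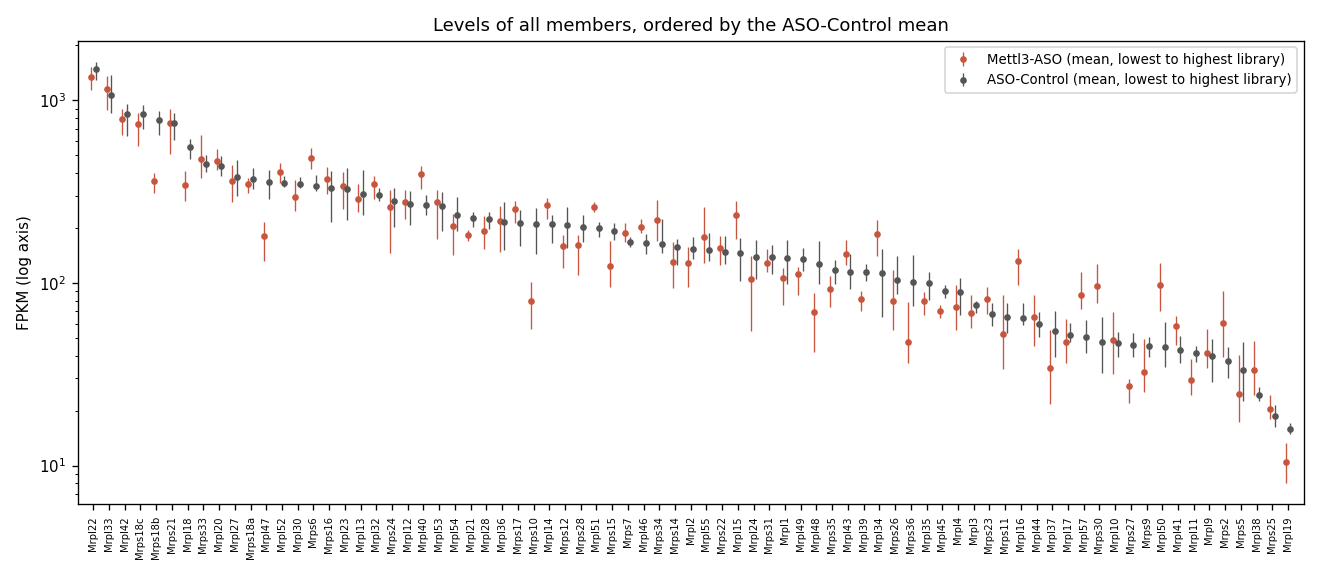
FPKM (log axis) of each of the 77 genes in Mettl3-ASO and ASO-Control morulae, ordered by the ASO-Control mean; points are means of 5 libraries and bars run from the lowest to the highest library. Levels fall from Mrpl22 to Mrpl19 over a 92.8-fold range, and Mrps18b, Mrpl47, Mrps10 and Mrps36 lie furthest below their ASO-Control level.

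Of the 5 most abundant members in ASO-Control morulae, 4 were not called. Mrpl22, whose protein lines the exit tunnel of the large subunit, had 1133, 1221, 1479, 1518 and 1387 FPKM in Mettl3-ASO libraries 1 to 5, against 1311, 1289, 1610.1, 1549 and 1629.9 FPKM in ASO-Control libraries 1 to 5. The ranges overlapped, and the log2 fold change of -0.17 ± 0.09 (SE; edgeR adjusted p = 0.149) was not called. Mrpl33 (homologue of bacterial L33) had 999.6, 881, 1355, 1212 and 1363 FPKM in Mettl3-ASO libraries, against 912, 851, 1378, 951 and 1253 FPKM in ASO-Control libraries, with a log2 fold change of 0.09 ± 0.12 (SE; edgeR adjusted p = 0.57). Its spread within each group was wider than the difference between the groups. Mrpl42, a mitochondria-specific protein of the large subunit, had 825, 644, 892, 801 and 772 FPKM in Mettl3-ASO libraries, against 889, 637, 954, 855 and 884 FPKM in ASO-Control libraries, and a log2 fold change of -0.14 ± 0.10 (SE; edgeR adjusted p = 0.284). The fourth, Mrps18c, and the one called, Mrps18b, are described below with their paralogue. Mrps18b was 12th in Mettl3-ASO and 5th in ASO-Control morulae.

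The sequences upstream of the genes were read for short motifs of factors known to act on nuclear genes of mitochondrial proteins. RefSeq promoter windows (250 bases before to 50 after a start site, GRCm38.p6) were found for 68 of the 77 genes, 74 windows in all, and both strands were searched. The ETS core CCGGAAG, the kind of site bound by ETS family factors, was in 25 windows (33.8%), against 20.2% of 9140 windows of tested genes and 8.86% of all 32851 windows. The NRF1 core GCGCANGCGC, where N is any base, was in 13 windows (17.6%), against 11.3% and 4.60%. The YY1 core AANATGGCGG was in 7 windows (9.46%), against 3.60% and 1.36%. CCAAT was in 40.5% of windows, against 38.9% and 37.4%. The ZNF143 core ACTACANNTCCC, searched after some of the sequences had been seen, was in 5 windows (6.76%), against 4.09% and 1.81%, and it can overlap an ETS core by its last 2 letters. A match is a description of these letters and not a site of binding.

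Genes with the same motif moved in both directions, as did all tested genes (25.4% higher and 24.0% lower). Of the 25 genes with an ETS core 3 rose and 6 fell; their median log2 fold change was -0.11, against -0.13 for the genes with a window and no ETS core. Of the 13 genes with an NRF1 core 2 rose and 4 fell (median -0.05 with and -0.11 without the core). Of the 27 genes with CCAAT 3 rose and 9 fell (median -0.14 with and -0.01 without). The median was -0.36 for the 7 genes with a YY1 core and -0.03 for those without. Of these 7, Mrps30 rose, Mrps27, Mrpl37 and Mrpl35 fell, and Mrpl27, Mrps11 and Mrps18a were not called. For the ZNF143 core the medians were 0.05 with and -0.11 without. The stretches upstream of all 5 genes with a ZNF143 core are printed because they share a motif and differ in direction. Mrpl50 and Mrpl34 rose, Mrpl24 fell, and Mrpl42 and Mrps22 were not called. Capitals mark the ZNF143 core and the ETS core, exon bases are left out, and each is written 5′ to 3′ on the strand of the gene. The stretches are Mrpl50 at chr4:49521094-49521175 (minus strand), Mrpl34 at chr8:71464776-71464925 (plus), Mrpl24 at chr3:87919356-87919505 (plus), Mrpl42 at chr10:95501950-95502099 (minus) and Mrps22 at chr9:98601680-98601829 (minus).
Mrpl50: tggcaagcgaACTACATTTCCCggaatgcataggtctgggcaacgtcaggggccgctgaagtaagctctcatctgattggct
Mrpl34: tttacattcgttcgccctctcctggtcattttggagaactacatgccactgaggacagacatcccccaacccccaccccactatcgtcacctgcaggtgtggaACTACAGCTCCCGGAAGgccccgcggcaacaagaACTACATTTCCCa
Mrpl24: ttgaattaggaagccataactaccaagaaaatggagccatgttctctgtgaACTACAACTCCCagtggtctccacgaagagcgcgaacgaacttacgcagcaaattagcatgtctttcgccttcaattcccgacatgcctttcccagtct
Mrpl42: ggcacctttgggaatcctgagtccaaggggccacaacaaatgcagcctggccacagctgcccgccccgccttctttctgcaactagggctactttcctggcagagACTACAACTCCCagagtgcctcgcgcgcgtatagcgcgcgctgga
Mrps22: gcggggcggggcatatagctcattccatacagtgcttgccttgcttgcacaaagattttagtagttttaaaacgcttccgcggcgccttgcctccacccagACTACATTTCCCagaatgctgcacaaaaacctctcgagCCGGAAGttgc

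In Mrpl34 the first ZNF143 core and the ETS core share 2 letters, and a second ZNF143 core follows close to the start site. In Mrps22 the ETS core begins 11 bases before the start site, after a ZNF143 core that begins 49 bases before it. In Mrpl50 the single ZNF143 core begins 82 bases before the start site.

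In the large subunit 14 of 50 genes fell (28.0%, beside 24.0% of all tested genes) and 11 rose (22.0%, beside 25.4%); the median log2 fold change was -0.07. Mrpl47, whose protein is the homologue of bacterial L29 next to the polypeptide exit, had 161, 133, 217, 195 and 205 FPKM in Mettl3-ASO libraries 1 to 5, against 308, 288, 402, 384 and 415 FPKM in ASO-Control libraries 1 to 5. Every Mettl3-ASO library lay below every ASO-Control library, and the log2 fold change was -1.03 ± 0.10 (SE; edgeR adjusted p = 5.5e-06), a 2.04-fold decrease. The gene lies at chr3:32725397-32737605 (GRCm38, GENCODE M21, minus strand), and 24.2% of its exon bases lie under exons of the opposite strand (Actl6a and Ndufb5). Of the 6 members assigned to the polypeptide exit here, 3 fell (Mrpl47, Mrpl45 and Mrpl24) and none rose. Mrpl45, which helps to anchor the ribosome at the inner membrane, had 73.4, 64.7, 75.5, 67.7 and 69.1 FPKM in Mettl3-ASO libraries, against 83.2, 97.3, 97.6, 83.8 and 88.6 FPKM in ASO-Control libraries, with a log2 fold change of -0.41 ± 0.10 (SE; edgeR adjusted p = 0.00526). Mrpl24 (log2 fold change -0.46 ± 0.15 SE, edgeR adjusted p = 0.0258) lost its call without ASO-Control replicate 1 (adjusted p = 0.0571), ASO-Control replicate 5 (0.0693) or Mettl3-ASO replicate 5 (0.0598).

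The central protuberance, where the large subunit contacts the head of the small one, held changes in both directions. Of the 5 genes assigned to it here 2 fell and 2 rose, whereas 24.0% of all tested genes fell and 25.4% rose. Sites were assigned only in part, so the count may not cover the whole protuberance. Mrpl18, the homologue of bacterial L18, had 410.1, 290.1, 403, 337 and 282 FPKM in Mettl3-ASO libraries, against 616, 481, 576, 584 and 532 FPKM in ASO-Control libraries. The groups did not overlap, and the log2 fold change was -0.74 ± 0.11 (SE; edgeR adjusted p = 2.0e-04). Mrpl48 had 64.1, 41.8, 88.2, 86.9 and 64.4 FPKM in Mettl3-ASO libraries, against 105, 99.2, 147, 116 and 169.6 FPKM in ASO-Control libraries. All 5 Mettl3-ASO libraries were below the lowest control, with a log2 fold change of -0.95 ± 0.15 (SE; edgeR adjusted p = 2.7e-04). Of the 50-base windows of its exons 13.7% occur in other genes on either strand, Rab6a and the pseudogene Mrpl48-ps among them. Opposite-strand exons of Rab6a cover 8.68% of its exon bases. Mrpl40, a mitochondria-specific neighbour of these proteins, had 327, 354, 427, 429.8 and 435 FPKM in Mettl3-ASO libraries, against 244, 236, 285, 305 and 264 FPKM in ASO-Control libraries. In FPKM all 5 Mettl3-ASO libraries lay above all 5 ASO-Control libraries, which was not so on TMM-scaled counts, with a log2 fold change of 0.52 ± 0.10 (SE; edgeR adjusted p = 7.5e-04). The other member that rose, Mrpl38, had a log2 fold change of 0.39 ± 0.15 (SE; edgeR adjusted p = 0.0483), and its call was lost with the replicate block (adjusted p = 0.0514) and when any 1 library other than Mettl3-ASO replicates 2 and 5 was left out (adjusted p up to 0.125). Mrpl46, the remaining one, had 0.26 ± 0.12 (SE; edgeR adjusted p = 0.081) and was not called.

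Beyond these sites, 3 genes of the large subunit rose about 2-fold. Mrpl50 (chr4:49512596-49521093, minus strand), a mitochondria-specific protein, had 70.3, 82.7, 104, 102 and 129 FPKM in Mettl3-ASO libraries, against 44.9, 34.6, 42, 61.3 and 40.4 FPKM in ASO-Control libraries. The lowest Mettl3-ASO library was above the highest ASO-Control library, and the log2 fold change was 1.08 ± 0.15 (SE; edgeR adjusted p = 1.2e-04). Mrpl16, the homologue of bacterial L16, which lies close to the tRNA sites, had 97.1, 153, 148, 128 and 133 FPKM in Mettl3-ASO libraries, against 62.9, 59, 78.1, 63 and 59 FPKM in ASO-Control libraries. Its log2 fold change was 1.0 ± 0.16 (SE; edgeR adjusted p = 2.8e-04), and ASO-Control replicate 3 stood above the other controls. Mrps30, in the large subunit in spite of its name, had 102, 127, 89.4, 83.7 and 77.4 FPKM in Mettl3-ASO libraries, against 65.1, 49.2, 35.1, 55.5 and 32.2 FPKM in ASO-Control libraries, and a log2 fold change of 0.99 ± 0.16 (SE; edgeR adjusted p = 3.2e-04). The FPKM ranges of these 3 genes did not overlap between groups, but on TMM-scaled counts those of Mrpl50 and Mrpl16 did.

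Smaller rises were measured in Mrpl57, Mrpl34, Mrpl15 and Mrpl51. Mrpl57, a short mitochondria-specific protein, had 114, 71.7, 84.5, 80 and 77.9 FPKM in Mettl3-ASO libraries, against 63, 44, 47, 58.1 and 41.6 FPKM in ASO-Control libraries, with a log2 fold change of 0.71 ± 0.13 (SE; edgeR adjusted p = 8.5e-04). Mrpl34 (homologue of bacterial L34) had 164, 141, 221, 196 and 209 FPKM in Mettl3-ASO libraries, against 112, 65.3, 135, 153 and 102 FPKM in ASO-Control libraries, and the ranges overlapped (log2 fold change 0.69 ± 0.15 SE, edgeR adjusted p = 0.00227). ASO-Control replicate 2 was the lowest library of all for this gene. Mrpl51 had 244, 256, 276, 256 and 264 FPKM in Mettl3-ASO libraries, against 211, 185, 206, 215 and 178 FPKM in ASO-Control libraries, which gave a log2 fold change of 0.34 ± 0.10 (SE; edgeR adjusted p = 0.0106) with little spread in either group. The calls of Mrpl51 and Mrpl15 were lost in the fit without the batch term.

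Mrpl15 was the one member whose mix of transcripts shifted. This homologue of bacterial L15 had 173, 232, 282, 238 and 256 FPKM in Mettl3-ASO libraries, against 102, 152, 175, 129.5 and 169.5 FPKM in ASO-Control libraries, with a log2 fold change of 0.56 ± 0.16 (SE; edgeR adjusted p = 0.0113). Its mean transcript length, weighted by abundance, was 2833, 2932, 2985, 2951 and 2897 bases in Mettl3-ASO libraries, against 2998, 3013, 3186, 3157 and 3142 bases in ASO-Control libraries. Each Mettl3-ASO value was below each ASO-Control value. On effective length the log2 difference was -0.09 (limma with Benjamini-Hochberg adjustment, adjusted p = 0.0204), and 0.609% of all tested genes were called on this measure. On length itself, tested in the genes with more than 1 transcript, Mrpl15 was called too (log2 difference -0.09, adjusted p = 0.0102), beside 8.27% of 2637 genes. The call on effective length was lost with the replicate block and without the batch term. It was also lost without Mettl3-ASO replicate 1 or 4 or ASO-Control replicate 2, 3, 4 or 5. The test on length itself was not repeated in these settings. The annotation gives the gene 3 transcripts. A single transcript is in the tables for 68 of the 77 genes, so that length cannot move in them.

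Of the other large-subunit genes that fell, Mrpl19 and Mrpl37 had the smallest p-values. Mrpl19, the homologue of bacterial L19 and the least abundant of the 77, had 13.4, 11.9, 10.1, 8.81 and 7.99 FPKM in Mettl3-ASO libraries, against 16.6, 15.7, 15, 17 and 15.4 FPKM in ASO-Control libraries. The ranges were apart, with a log2 fold change of -0.68 ± 0.13 (SE; edgeR adjusted p = 0.00111); 36.0% of its exon bases lie under opposite-strand exons of Gcfc2. Mrpl37, a mitochondria-specific protein, had 55, 34, 33.8, 27.6 and 21.6 FPKM in Mettl3-ASO libraries, against 70.1, 65.9, 52.4, 46.4 and 39.4 FPKM in ASO-Control libraries. Both groups were higher in the untagged libraries, and the ranges overlapped over all 10 libraries (log2 fold change -0.74 ± 0.15 SE, edgeR adjusted p = 0.00161). Mrpl11, in the stalk that recruits translation factors, had 38.4, 26.9, 31.2, 25.6 and 24.4 FPKM in Mettl3-ASO libraries, against 45.2, 39.8, 42, 36.9 and 43.6 FPKM in ASO-Control libraries, with a log2 fold change of -0.56 ± 0.13 (SE; edgeR adjusted p = 0.00272).

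The remaining large-subunit genes that fell were Mrpl39, Mrpl1, Mrpl35, Mrpl21, Mrpl4 and Mrpl30, with log2 fold changes of -0.53 to -0.28, and the remaining ones that rose were Mrpl14 and Mrpl41, at 0.32 and 0.37. The genes not called and not described otherwise (Mrpl2, Mrpl3, Mrpl13, Mrpl17, Mrpl20, Mrpl23, Mrpl27, Mrpl28, Mrpl32, Mrpl43, Mrpl44, Mrpl49, Mrpl52, Mrpl53, Mrpl54 and Mrpl55) lay between -0.31 and 0.28.

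The other stalk genes were among those with the smallest fold changes. Mrpl12, whose protein forms the flexible part of the stalk, had 309, 267, 322, 260.0 and 223 FPKM in Mettl3-ASO libraries, against 299, 209, 282, 319 and 240.0 FPKM in ASO-Control libraries (log2 fold change -0.00 ± 0.13 SE, edgeR adjusted p = 0.99). Mrpl10, which anchors it, had 69, 50.1, 54, 40 and 31.8 FPKM in Mettl3-ASO libraries, against 53.7, 50.3, 41, 51.9 and 39.1 FPKM in ASO-Control libraries (log2 fold change -0.01 ± 0.15 SE, edgeR adjusted p = 0.96). The groups overlapped in both genes. Mrpl9 and Mrpl36, homologues of bacterial L9 and L36, had mean levels of 41.3 ± 8.97 and 218 ± 47.3 FPKM in Mettl3-ASO and 39.9 ± 8.02 and 215 ± 56.8 FPKM in ASO-Control morulae (SD, n = 5 each). None of the 4 was called.

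In the small subunit 10 of 26 genes fell (38.5%, beside 24.0% of all tested genes) and 3 rose (11.5%, beside 25.4%); their median log2 fold change was -0.19. Mrps10, the homologue of bacterial S10 in the head of the subunit, had 85.8, 55.7, 81.9, 101 and 76.5 FPKM in Mettl3-ASO libraries 1 to 5, against 171, 144, 256, 247 and 237 FPKM in ASO-Control libraries 1 to 5. The highest Mettl3-ASO library was below the lowest ASO-Control library, and the log2 fold change of -1.42 ± 0.13 (SE; edgeR adjusted p = 4.9e-06), a 2.67-fold decrease, was the lowest among the 77. The gene lies at chr17:47368887-47381417 (plus strand). Of the 5 genes assigned to the head here, 3 fell (Mrps10, Mrps9 and Mrps14) and none rose. Mitochondria-specific genes of this subunit were assigned no site, so the count may not cover the whole head. Mrps9 had 49.5, 29.9, 27.1, 31.6 and 25.3 FPKM in Mettl3-ASO libraries, against 50, 50.6, 39.3, 45.4 and 39.6 FPKM in ASO-Control libraries, with a log2 fold change of -0.53 ± 0.14 (SE; edgeR adjusted p = 0.00642). In FPKM, Mettl3-ASO replicate 1 was within the range of the controls for this gene, and the other 4 were below it. On TMM-scaled counts the groups did not overlap. The call of Mrps14 (log2 fold change -0.32 ± 0.12 SE, edgeR adjusted p = 0.0461) was lost when any 1 library other than Mettl3-ASO replicate 5 and ASO-Control replicate 4 was left out, with adjusted p up to 0.131.

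The 3 paralogues related to bacterial S18 differed in their values. Mrps18b (chr17:35910379-35916389, minus strand), a protein of the small subunit, had 352, 309, 402, 369 and 386 FPKM in Mettl3-ASO libraries, against 646, 706, 869.8, 851 and 814 FPKM in ASO-Control libraries. Its groups were far apart and the spread within each was small, with a log2 fold change of -1.13 ± 0.09 (SE; edgeR adjusted p = 1.8e-06), a 2.20-fold decrease and the smallest p-value among the 77 genes; 30.5% of its exon bases lie under opposite-strand exons of Gm16279. Mrps18c, which takes the place of S18 on the platform, had 767, 559.5, 726, 828 and 855 FPKM in Mettl3-ASO libraries, against 872, 701, 942, 853 and 832 FPKM in ASO-Control libraries. Mrps18a, in the large subunit, had 351, 311, 375, 346 and 364 FPKM in Mettl3-ASO libraries, against 329, 327, 424, 385 and 380.0 FPKM in ASO-Control libraries. Neither of these was called, with log2 fold changes of -0.21 ± 0.10 (SE; edgeR adjusted p = 0.114) for Mrps18c and -0.11 ± 0.09 (SE; edgeR adjusted p = 0.325) for Mrps18a. The difference between the paralogues was not tested.

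**Figure D4:**
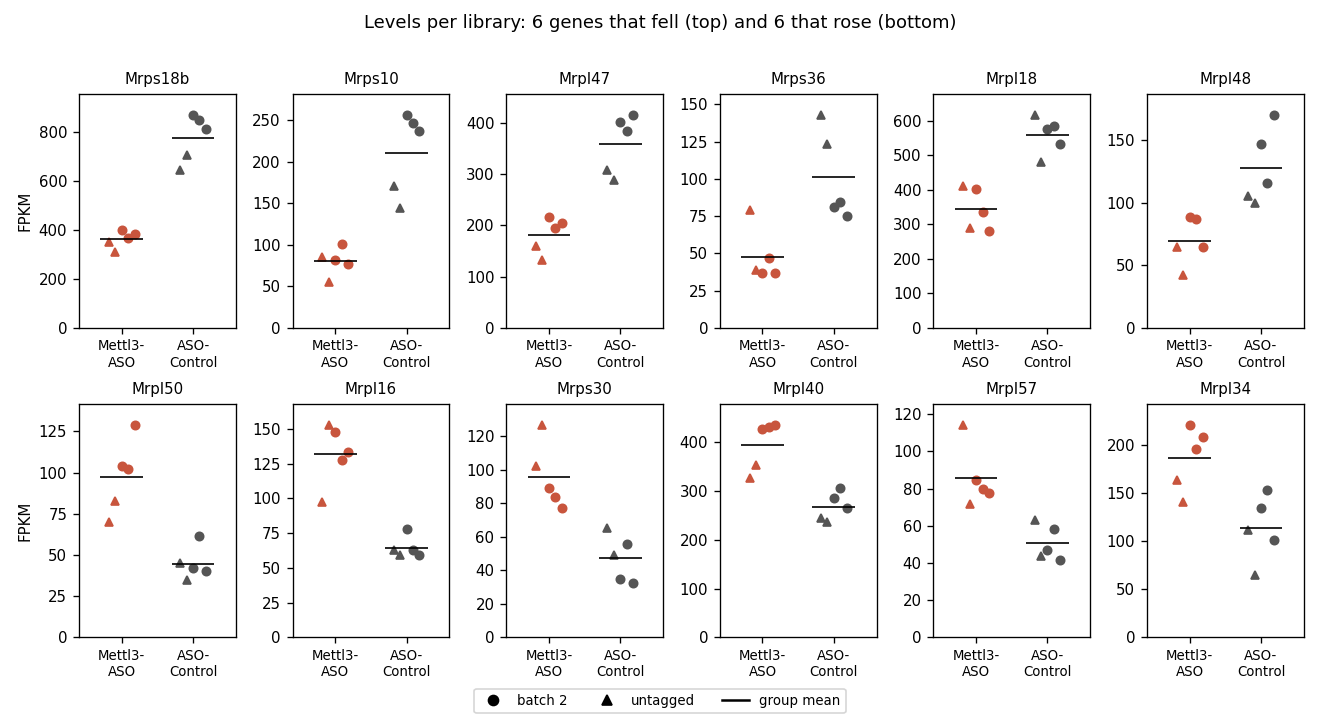
FPKM in each of the 10 libraries for 6 genes that fell (top: Mrps18b, Mrps10, Mrpl47, Mrps36, Mrpl18 and Mrpl48) and 6 that rose (bottom: Mrpl50, Mrpl16, Mrps30, Mrpl40, Mrpl57 and Mrpl34), Mettl3-ASO left and ASO-Control right; circles are batch 2, triangles untagged, and lines group means. The groups are apart in every panel except Mrps36 and Mrpl34.

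On the platform and body the small subunit held members of both kinds. Mrps15, the homologue of bacterial S15 on the platform, had 170.0, 95.2, 132, 115 and 106 FPKM in Mettl3-ASO libraries, against 202, 171, 214, 183 and 191 FPKM in ASO-Control libraries, and the highest Mettl3-ASO value was just below the lowest control (log2 fold change -0.69 ± 0.13 SE, edgeR adjusted p = 0.0011). Mrps6, the homologue of bacterial S6 on the same platform, had 515, 421, 550.1, 455 and 476 FPKM in Mettl3-ASO libraries, against 347, 389, 322, 327 and 321 FPKM in ASO-Control libraries. All 5 Mettl3-ASO libraries were above the highest control, with a log2 fold change of 0.46 ± 0.10 (SE; edgeR adjusted p = 0.00279); 19.9% of its exon bases lie under exons of Slc5a3 and Gm49711 on the same strand. In the body Mrps5 and Mrps12 fell, with log2 fold changes of -0.50 ± 0.14 (SE; edgeR adjusted p = 0.00849) and -0.43 ± 0.15 (SE; edgeR adjusted p = 0.0341), and Mrps16 and Mrps17 were not called. The call of Mrps12 was lost without Mettl3-ASO replicate 2 (adjusted p = 0.081) or 5 (0.0764) or ASO-Control replicate 1 (0.101), 3 (0.0611) or 4 (0.0797).

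Mrps27 and Mrps2 went in opposite directions. Mrps27, a mitochondria-specific protein with pentatricopeptide repeats, had 29.5, 29.8, 25.3, 29.7 and 22.1 FPKM in Mettl3-ASO libraries, against 41.6, 52.9, 49.1, 39.5 and 44.9 FPKM in ASO-Control libraries. The ranges were apart, the log2 fold change was -0.79 ± 0.14 (SE; edgeR adjusted p = 5.6e-04), and 24.2% of the exon bases lie under opposite-strand exons. Mrps2, the homologue of bacterial S2, had 90.7, 60.2, 58.9, 54.1 and 39.4 FPKM in Mettl3-ASO libraries, against 38.7, 38.4, 30.3, 44.7 and 34.1 FPKM in ASO-Control libraries, with a log2 fold change of 0.62 ± 0.16 (SE; edgeR adjusted p = 0.00636). The call of Mrps2 was lost in batch 2 alone, where Mettl3-ASO replicate 5 was below ASO-Control replicate 4. The third gene of the subunit that rose, Mrps34, had a log2 fold change of 0.38 ± 0.15 (SE; edgeR adjusted p = 0.046); 63.4% of its exon bases lie under opposite-strand exons of Mapk8ip3, and its call was lost without Mettl3-ASO replicate 1, 3 or 4 or ASO-Control replicate 1, 2, 3 or 5 (adjusted p up to 0.11).

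In the small subunit Mrps35 and Mrps28 also fell, with log2 fold changes of -0.39 and -0.37. The genes of this subunit not called and not described otherwise (Mrps7, Mrps11, Mrps16, Mrps17, Mrps21, Mrps22, Mrps23, Mrps24, Mrps25, Mrps26, Mrps31 and Mrps33) lay between -0.44 and 0.25.

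Mrps36 (chr13:100735955-100744659, minus strand), the subunit of the 2-oxoglutarate dehydrogenase complex, had 79, 38.8, 36.9, 46.6 and 36.6 FPKM in Mettl3-ASO libraries, against 143, 124, 80.9, 84.6 and 75.2 FPKM in ASO-Control libraries. In FPKM, Mettl3-ASO replicate 1 stood apart from the other Mettl3-ASO libraries and reached the lower controls of batch 2. On TMM-scaled counts the groups did not overlap. The untagged ASO-Control libraries were higher than those of batch 2. Within each batch the Mettl3-ASO libraries were below the controls, and the log2 fold change was -1.12 ± 0.16 (SE; edgeR adjusted p = 1.3e-04). In 17.3% of its 50-base windows the sequence also occurs elsewhere, including its pseudogenes Mrps36-ps1 and Mrps36-ps2, so the counting could split reads among them.

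Grouped by origin, the 45 genes with a bacterial homologue had 17 lower (37.8%) and 6 higher (13.3%), with a median log2 fold change of -0.18. The 28 mitochondria-specific genes had 6 lower (21.4%) and 8 higher (28.6%), with a median of 0.06. Over all tested genes these shares were 24.0% and 25.4%. Within the large subunit the medians were -0.17 for 29 bacterial homologues and 0.18 for 19 mitochondria-specific genes. Within the small subunit they were -0.26 for 16 bacterial homologues and 0.04 for 9 mitochondria-specific genes. In the reported fit and its 21 alternatives the median lay between -0.23 and -0.12 for bacterial homologues and between 0.01 and 0.13 for mitochondria-specific genes. Mrpl55 was not classed, and the paralogues Mrps18a and Mrps18b were kept apart. The classes were compared by description only. By level, 15 of the 38 genes below the median ASO-Control level fell and 9 rose, against 10 and 5 of the 39 genes at or above it.

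The summed level of all 77 genes was 18813, 16183, 18581, 17780 and 17568 TPM (transcript abundance scaled to a common library sum) in Mettl3-ASO libraries 1 to 5, against 18436, 17016, 18803, 18962 and 18167 TPM in ASO-Control libraries 1 to 5. The groups overlapped, at 17785 ± 1037 TPM in Mettl3-ASO and 18277 ± 770 TPM in ASO-Control morulae (SD, n = 5 each). Large-subunit genes summed to 12000 ± 545 TPM in Mettl3-ASO and 11927 ± 510 TPM in ASO-Control morulae, and small-subunit genes to 5735 ± 506 and 6245 ± 298 TPM. The ratio of the large to the small sum was 1.96, 2.26, 2.11, 2.10 and 2.07 in Mettl3-ASO libraries, against 1.89, 1.91, 1.95, 1.86 and 1.94 in ASO-Control libraries, and these ranges did not overlap. Mrps18b alone made up 377 ± 18.2 TPM in Mettl3-ASO and 793 ± 74.4 TPM in ASO-Control morulae. Without it, a removal chosen after its values were seen, the ratio lay between 2.08 and 2.43 in Mettl3-ASO libraries, against 2.12 and 2.25 in ASO-Control ones, and the ranges overlapped.

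No difference between the batches in the size of a member's change passed the test. All 39 called genes had the same sign in batch 2 alone and in the untagged libraries alone, as did 25 of the 38 genes not called. The 39 were chosen by a fit to these same libraries, so a shared sign is partly fixed by that choice. In batch 2 alone 18 were lower and 10 higher, beside 39.0% of all tested genes called. In the 4 untagged libraries alone 3 were called (Mrps18b, Mrps10 and Mrpl47), beside 6.26% of all tested genes. In the test of the interaction of group and batch, none of the 77 was called by edgeR or DESeq2 and none had an unadjusted p under 0.05 in either tool (of all tested genes edgeR called 0 and DESeq2 0.0105%, and 1.67% had an unadjusted p under 0.05 in edgeR), with interaction terms of -0.31 to 0.48 on the log2 scale. In simulated counts of the 9522 genes, the fit to 4 libraries recovered 8.96% of genes changed 2-fold and the fit to all 10 libraries 44.8%. Far fewer genes were changed in the simulation than were called in the data, so these shares do not give the recovery in the data.

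Of the 39 calls, 27 were kept when each of the 10 libraries was left out in turn, 17 lower and 10 higher. The 12 others were lost without at least 1 library, at adjusted p of 0.0502 to 0.131, with absolute log2 fold changes of 0.28 to 0.46. They were Mrpl1, Mrpl4, Mrpl24, Mrpl30, Mrps12, Mrps14, Mrps28 and Mrps35, which fell, and Mrpl14, Mrpl38, Mrpl41 and Mrps34, which rose. Each library ended between 3 and 9 of these calls. Leaving out Mettl3-ASO replicate 4 ended 9, and leaving out ASO-Control replicate 1, 3 or 5 ended 8. The FPKM ranges of the groups were apart for 19 of the 77 genes, 11 lower and 8 higher (24.7%), beside 25.6% of all tested genes. On TMM-scaled counts per library size they were apart for 17, 13 lower and 4 higher (22.1%, beside 27.1%). The fit with the replicate number as a block called 55.1% of all tested genes; Mrpl2, Mrpl28, Mrpl49, Mrps11 and Mrps26 were then also lower and Mrpl43 higher, with adjusted p of 0.00894 to 0.0472, and Mrpl38 was no longer called.

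The Mettl3-ASO libraries differed in how far they stood from the controls. For 11 of the 25 genes that fell, Mettl3-ASO replicate 1 was the library nearest to the controls of its batch, and replicate 5 was the farthest for 11 of the 25. For the 14 genes that rose, replicate 1 was nearest for 6 and farthest for 4, and its median log2 ratio of 0.59 lay within the 0.51 to 0.69 of the other libraries. The median log2 ratio over the genes that fell was -0.44 in replicate 1 and -0.72 in replicate 5.

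The 6 proteins of the ribosome whose genes are named otherwise were measured too. Among them 2 fell (33.3%, beside 24.0% of all tested genes) and 1 rose (16.7%, beside 25.4%). Their median lay at -0.30 on the log2 scale. Ict1, a peptidyl-tRNA hydrolase built into the large subunit, had 175, 82, 159, 146 and 98.1 FPKM in Mettl3-ASO libraries, against 303, 268, 414, 329 and 327 FPKM in ASO-Control libraries, with a log2 fold change of -1.36 ± 0.18 (SE; edgeR adjusted p = 5.6e-05). Dap3, a GTP-binding protein of the small subunit, had 21.4, 15.7, 19.5, 18.8 and 14.9 FPKM in Mettl3-ASO libraries, against 25.8, 29.3, 25.2, 27.5 and 30 FPKM in ASO-Control libraries (log2 fold change -0.66 ± 0.12 SE, edgeR adjusted p = 7.2e-04). In both genes all Mettl3-ASO libraries were below all ASO-Control libraries. Gadd45gip1, a large-subunit protein, had 75, 66.9, 79, 73.4 and 55.2 FPKM in Mettl3-ASO libraries, against 36.9, 31, 39.9, 63.9 and 35.2 FPKM in ASO-Control libraries, overlapping through ASO-Control replicate 4 (log2 fold change 0.73 ± 0.17 SE, edgeR adjusted p = 0.00388).

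Factors that assemble the mitochondrial ribosome or modify its RNA had 7 of 28 lower (25%), 6 higher (21.4%) and a median of -0.21 on the log2 scale, with both shares near those of all tested genes (24.0% and 25.4%). The RNA helicase gene Dhx30 averaged 6.88 ± 0.5 FPKM in Mettl3-ASO and 2.69 ± 0.433 FPKM in ASO-Control morulae (SD, n = 5 each) and rose, with a log2 fold change of 1.3 ± 0.16 (SE; edgeR adjusted p = 4.0e-05). Mterf4, whose protein guides an rRNA methyltransferase, averaged 30.1 ± 4.55 FPKM in Mettl3-ASO and 13.1 ± 0.894 FPKM in ASO-Control morulae (SD, n = 5 each), with a log2 fold change of 1.16 ± 0.15 (SE; edgeR adjusted p = 7.1e-05). Malsu1, which keeps the large subunit from joining too early, averaged 70.3 ± 26.9 FPKM in Mettl3-ASO and 139 ± 13.8 FPKM in ASO-Control morulae (SD, n = 5 each), with a log2 fold change of -1.08 ± 0.16 (SE; edgeR adjusted p = 1.7e-04). Of 20 translation factors and genes of nascent chain insertion 8 fell (40%) and 2 rose (10%), with a median of -0.31. Qrsl1, a subunit of the enzyme that makes glutaminyl-tRNA, averaged 11.3 ± 2.21 FPKM in Mettl3-ASO and 28.8 ± 5.87 FPKM in ASO-Control morulae (SD, n = 5 each), with a log2 fold change of -1.40 ± 0.19 (SE; edgeR adjusted p = 9.8e-05). Hemk1, which methylates mitochondrial release factors, averaged 1.1 ± 0.813 FPKM in Mettl3-ASO and 4.95 ± 1.11 FPKM in ASO-Control morulae (SD, n = 5 each), with a log2 fold change of -2.21 ± 0.41 (SE; edgeR adjusted p = 8.5e-04), and 2810006K23Rik, the symbol used here for the release factor Mtrfr, 3.72 ± 2.93 FPKM in Mettl3-ASO and 9.76 ± 2.01 FPKM in ASO-Control morulae (SD, n = 5 each), with a log2 fold change of -1.58 ± 0.28 (SE; edgeR adjusted p = 5.8e-04).

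Of the 15 mitochondrial aminoacyl-tRNA synthetase genes tested (17 listed) 4 fell (26.7%) and 1 rose (6.67%), and the median was -0.09 on the log2 scale. Fars2 averaged 0.828 ± 0.15 FPKM in Mettl3-ASO and 2.94 ± 0.844 FPKM in ASO-Control morulae (SD, n = 5 each), with a log2 fold change of -1.86 ± 0.31 (SE; edgeR adjusted p = 3.7e-04). Rars2 averaged 48.3 ± 6.3 FPKM in Mettl3-ASO and 72.1 ± 13.7 FPKM in ASO-Control morulae (SD, n = 5 each), with a log2 fold change of -0.62 ± 0.13 (SE; edgeR adjusted p = 0.00137). Wars2, the one that rose, averaged 11.4 ± 3.66 FPKM in Mettl3-ASO and 5.38 ± 1.28 FPKM in ASO-Control morulae (SD, n = 5 each), with a log2 fold change of 1.07 ± 0.23 (SE; edgeR adjusted p = 0.00218). In the cytosolic ribosome, set beside the mitochondrial one as the other ribosome of the cell, 58 of 78 protein genes fell (74.4%) and 1 rose (1.28%), beside 24.0% and 25.4% of all tested genes. Their median was -0.39 on the log2 scale, and that of the 77 mitoribosomal genes -0.11. Fau, Rpl13 and Rpl7a had the smallest p-values there, with log2 fold changes of -0.79 ± 0.09 (SE; edgeR adjusted p = 1.9e-05) for Fau, -0.93 ± 0.10 (SE; edgeR adjusted p = 1.2e-05) for Rpl13 and -0.83 ± 0.10 (SE; edgeR adjusted p = 2.5e-05) for Rpl7a. The difference between the ribosomes was not tested.

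Many of the 77 genes start close to another gene on the opposite strand. A protein-coding neighbour with its start within 1000 bases, head to head, was annotated for 18 of 77 (23.4%), against 11.8% of 8829 tested protein-coding genes. Of the 12 neighbours that were tested 3 rose and 4 fell, and in 4 pairs both genes were called. These counts stood beside 49.4% of all tested genes called, and pairing was not tested. Mrpl40 and Hira, which encodes a histone chaperone, both rose, from starts 175 bases apart, Hira with a log2 fold change of 1.01 ± 0.25 (SE; edgeR adjusted p = 0.00521). Hira was low, at a mean of 1.63 FPKM in Mettl3-ASO and 0.79 FPKM in ASO-Control morulae, and its FPKM ranges overlapped. Mrps12 and Sars2, the mitochondrial seryl-tRNA synthetase gene, both fell, from starts 172 bases apart, Sars2 with -0.69 ± 0.20 (SE; edgeR adjusted p = 0.0112). In batch 2 alone neither Mrps12 (edgeR adjusted p = 0.248) nor Sars2 (edgeR adjusted p = 0.198) was called. The call of Mrps12 also depended on single libraries, as given above. In the other pairs the directions differed. Mrpl57 rose while Ska3, of the spindle and kinetochore complex, fell (-0.71 ± 0.18 SE, edgeR adjusted p = 0.00607), with starts 49 bases apart. Mrps18b fell while Ppp1r10, which encodes a phosphatase subunit, rose (0.49 ± 0.18 SE, edgeR adjusted p = 0.0351), with starts 45 bases apart. The call of Ppp1r10 was lost without Mettl3-ASO replicate 1, 4 or 5 or ASO-Control replicate 1, 3 or 5 (adjusted p up to 0.0931). Neither labels nor headers say whether reads were counted by strand. Exons under opposite-strand exons make up over 10% of the bases of 14 of the 77 genes, and reads from either strand could not be told apart in them if strand was not used.

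**Figure D5:**
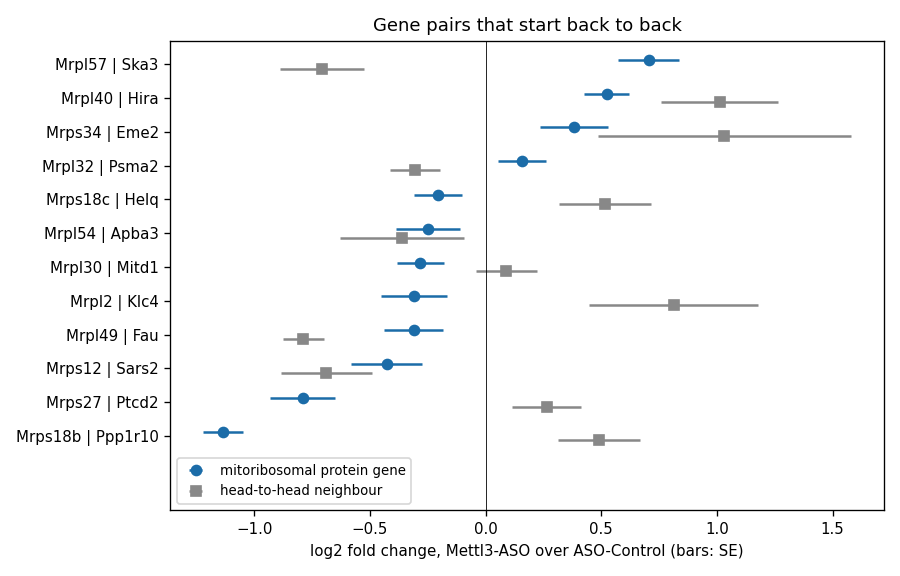
Log2 fold change of Mettl3-ASO over ASO-Control with its standard error for 12 mitoribosomal protein genes (circles) and their head-to-head neighbours (squares), from the highest member at the top to the lowest at the bottom. Mrpl40 and Hira lie on the same side of 0, as do Mrps12 and Sars2, whereas Mrpl57 and Ska3, and Mrps18b and Ppp1r10, lie on opposite sides.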

How the data were processed

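Each library has 1 deposited table with the columns of RSEM output. STAR 2.7.10, RSEM 1.3.3 and the build mm10 (GRCm38) are named per the submitters' processing notes. Polyadenylated RNA was amplified as full-length cDNA (SMART-Seq v4 PLUS kit), per the labels. For strand use and annotation release, the sources used here give nothing. The authors deposited expected counts, which share out multi-mapping reads by estimation. Deposited TPM values have the same sum in each library. Deposited FPKM values are relative to fragment number and transcript length. Length and effective length are abundance-weighted means over transcripts. Mitochondrially encoded transcripts were not analysed here.

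Groups, replicates and batches came from the labels. Separate fertilizations are not stated by the labels, so the p-values reflect how these libraries spread, and that spread may be technical. All 8 pairs of replicates of the same group and batch differed by more than sampling noise (chi-square of at least 19.6 per degree of freedom). Counting error sets the lower limit of the spread at each depth, and reads carry no molecular identifiers.

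Rounded expected counts entered edgeR 4.0.16 (quasi-likelihood, TMM scaling, terms for batch and group; R 4.3.3), for the 9522 genes whose mean FPKM was 1 or more. Effective length was tested with limma 3.58.1 on a log2 scale. Called means a Benjamini-Hochberg adjusted p under 0.05. Alternatives were DESeq2 1.42.0, median-ratio and library-total scaling, no filter and a mean FPKM of at least 5, limma on log2(FPKM + 1) and log2(FPKM + 5), no batch term, each batch alone, a replicate block, and each library left out.

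Same-numbered libraries deviated together from their group and batch means. The correlations were 0.339, 0.339, 0.210, 0.210 and 0.182 for replicates 1 to 5, and the first pair is 1 quantity. The numbers were therefore read as pairing the libraries, but the reported fit has terms for batch and group only. Pairing enters only the fit with the replicate number as a block, which called 30 members lower and 14 higher. On simulated counts of the 9522 genes the test recovered 4.48% of 1.5-fold, 44.8% of 2-fold and 93.9% of 4-fold changes. Only 67, 67 and 66 genes were changed by these folds in the simulation, whereas 49.4% of tested genes were called in the data. With fewer changed genes the adjustment is stricter, so these shares do not give the recovery in the data.

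Members, classes and related lists were chosen with earlier results of these data known. Named with values are the 10 members called lower and the 10 called higher with the smallest p, the 5 most abundant in ASO-Control, the Mrps18 paralogues, members called on effective length, the 4 with the smallest fold change, Mrps36, and 3 genes of each related list; others were added where a site or a neighbour was described. Coordinates and overlaps are from GENCODE M21, and promoters from RefSeq on GRCm38.p6.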

Additional observations from a re-analysis of the deposited data

Results flagged for a closer look

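In 7 of 88 groups of 5 libraries examined, 1 library stood apart from the other 4; chance alone flags about 1 group in 20. Mrps36 had 78.98 FPKM in Mettl3-ASO replicate 1, against 36.6 to 46.6 FPKM in the other Mettl3-ASO libraries. Mrpl16 had 78.08 FPKM in ASO-Control replicate 3, against 59.0 to 63.0 FPKM in the other ASO-Control libraries. Among genes that are not members, Gadd45gip1 had 63.92 FPKM in ASO-Control replicate 4 (30.99 to 39.94 FPKM in the others), Malsu1 had 116.42 FPKM in Mettl3-ASO replicate 1 (46.63 to 66.19 FPKM), and 2810006K23Rik had 8.95 FPKM in Mettl3-ASO replicate 1 (2.24 to 2.57 FPKM). Rpl7a had 885.27 FPKM in Mettl3-ASO replicate 1 (586.1 to 661.53 FPKM) and 1365.46 FPKM in ASO-Control replicate 1 (1081.49 to 1141.67 FPKM). The calls of these 6 genes were kept when the library was left out.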

How the results depend on the processing

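The count of members that rose was 14, and it was 8 with no batch term, 9 with no filter and 0 in the untagged libraries alone. The count that fell was 25, and it was 15 with no batch term and 3 in the untagged libraries alone. Leaving out 1 library each gave 10 to 14 higher, 19 to 27 lower and 4194 to 4800 of all tested genes called, against 596 of all tested genes in the untagged libraries alone. The 1 call on effective length (Mrpl15) became 0 with no batch term, 0 with the replicate block, and 0 to 1 when 1 library was left out. Library totals alone gave 16 higher and 18 lower, a mean FPKM of at least 5 gave 18 and 20, and limma gave 15 and 19 with either pseudocount. Median-ratio scaling gave 14 and 25, DESeq2 14 and 26, and the replicate block 14 and 30; beside the calls named in the report the block changed no other member. The median of the members lay between -0.16 and -0.05 in all 21 settings. The median of all genes was 0.18 with no filter, 0.06 with library totals alone and -0.01 with a mean FPKM of at least 5. With limma it was 0.04 and 0.03 for pseudocounts of 1 and 5. Of the 44 named genes, 30 lost their call in the untagged libraries alone, 2 in batch 2 alone, 2 with no batch term and 1 with no filter; no called gene reversed. The cause was not tested. The fit to 4 libraries recovered 8.96% of simulated 2-fold changes, in counts with far fewer changed genes than were called in the data.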
